A study of Oidiodendron maius Zn with 6 samples.

Results

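The 131 gene models described here had less transcript in mycelium of the fungus Oidiodendron maius Zn grown on glucose than in mycelium grown on BSA or on peat, with similar levels on BSA and peat. They were chosen on the measured values from 16703 gene models in all. Reads were summed over the 2 libraries of each condition, expressed as counts per 1e6 reads (CPM), and BSA and peat were rescaled so that their median ratio to glucose was 1 over the 7309 models with at least 20 CPM in all 3 conditions. A member had at least 20 rescaled CPM in BSA and in peat, a value of CPM + 0.5 at least 2-fold that of glucose in both, and less than 2-fold between BSA and peat. Because these values made the choice, every ratio to glucose below is a description and carries no test.

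Oidiodendron maius is an ascomycete that forms ericoid mycorrhiza with plants of the heather family and can also live as a saprotroph. The strain was grown alone for 45 days at pH 4.7 on Modified Melin Norkrans agar under a cellulose membrane, amended with glucose (1 g per L), BSA (bovine serum albumin, a protein, 0.1 g per L) or peat (about 10 g dry weight). All groups shared the strain and the age of the cultures. The recipe lists glucose and an ammonium salt in that base, the glucose libraries carry the code NH4, and the sources used here do not say whether either was left out of the plates with BSA or peat.

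Many ascomycetes take up glucose in preference to other carbon sources and keep genes for the use of polymers, proteins and alternative sugars at a low level while glucose is present, a control known as carbon catabolite repression. Saprotrophic and ericoid mycorrhizal fungi are known for secreted enzymes that attack proteins and plant polymers when simple sugars are scarce. This is background only. The deposited tables identify models by JGI protein ID of the Oidma1 annotation and do not pair the IDs with names or products, so the roles of the members are not given here, no pathway list could be filled, and no sequence is shown.

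For every condition there was a library of paired reads, with 893061 to 1043870 gene reads, and a deeper one of single reads, with 20008329 to 24690601. After removal of a layout effect shared by the conditions, the 2 libraries of a condition deviated from each other by 1.06 times the variance of counting (10546 models), so they were counted as 1 sample. There is therefore no replicate check on any difference, and the intervals given below cover counting error only.

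The members were a small part of the expressed models. Among the 7682 models that reached 20 CPM in BSA and in peat, 4.24% were at least 2-fold higher in BSA than in glucose, 2.86% were so in peat, and 1.85% (142 models) in both. The 131 members were the 1.71% that also differed by less than 2-fold between BSA and peat. The rule fixes these counts, and the comparisons of BSA and peat with glucose share the glucose libraries. Of the 11 models left out by the last criterion, 8 were higher in BSA than in peat and 3 higher in peat. Without the glucose single-read library, which leaves paired reads of glucose against mostly single reads of BSA and peat, 263 models met the rule, 110 of them among the 131.

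**Figure D1:**
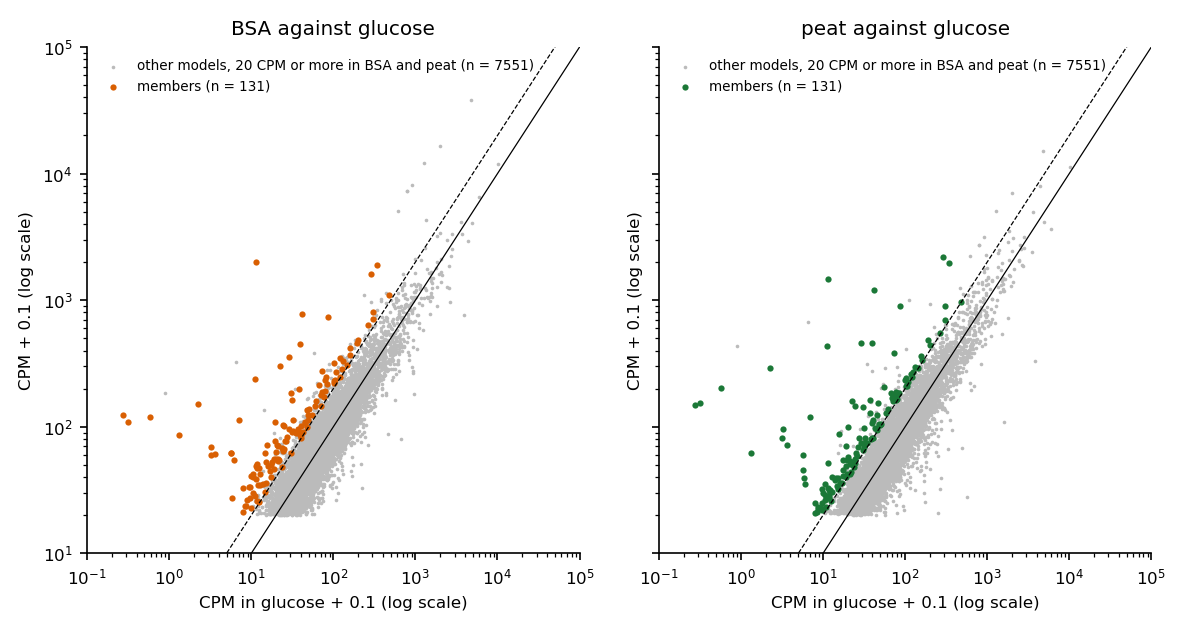
Levels of gene models in BSA (left) and peat (right) against glucose, as rescaled CPM + 0.1 on log axes; coloured points are the 131 members, grey points the other models with at least 20 CPM in BSA and in peat, the solid line marks equal levels and the dashed line 2-fold. Most members lie just above the dashed line, and a few lie far to the left with under 5 CPM in glucose.

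Most members differed from glucose by little more than the limit. The median ratio of CPM + 0.5 to glucose was 2.85 in BSA (quartiles 2.43 and 3.98) and 2.48 in peat (2.17 and 3.22), against 1 in both for all 7682 models (1.003 and 1.007). In 70 members, 53.4%, both ratios were under 3. At least 4-fold higher in both were 26 members, where 0.364% of all 7682 models, 28 models, were so. Of these 26, 16 were at least 8-fold and 6 at least 32-fold higher in both.

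Low on glucose did not mean absent on glucose. In glucose 76 members had at least 20 CPM, 20 had at least 100 CPM, and only 8 of the 131 were under 5 CPM and 3 under 1 CPM. The median of the members was 24.6 CPM in glucose, 90.1 CPM in BSA and 81.7 CPM in peat, beside 65.7, 66.7 and 65.7 CPM for all 7682 models. The members together took 0.666% of the glucose paired-read library (exact 95% interval 0.65 to 0.683) and 0.685% of the glucose single-read library (0.681 to 0.688). These shares were 2.31% (2.28 to 2.34) and 2.27% (2.267 to 2.28) in BSA, and 2.43% (2.4 to 2.46) and 2.43% (2.42 to 2.432) in peat. The choice of members fixes that the shares rise from glucose. Only 3 members had over 1000 CPM in BSA and in peat. They alone held 0.0631% and 0.0642% in glucose, 0.524% and 0.502% in BSA, and 0.583% and 0.546% in peat.

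The libraries that went into the sums can also be looked at singly. In 130 of the 131 members both glucose RPKM values (reads per kb of model scaled to library depth, as deposited) lay below all 4 values of BSA and peat, where 20.9% of all 7682 models did so. The choice of members on the sums of these libraries largely fixes this count, and nothing is read from it. The exception was protein ID 99112 (225 nt), with RPKM of 13.8 and 89.8 in the paired-read and single-read glucose libraries, 39.8 and 323 in BSA, and 29.8 and 188 in peat. In each condition this short model was lower in the paired-read library, so its glucose single-read value lay above the paired-read values of BSA and peat, while within each layout glucose was lowest. Leaving out the BSA single-read library set the 8 paired reads of BSA against the 448 reads of glucose, 445 of them single reads, and gave a log2 ratio of -0.996. Leaving out that of peat gave -1.44 in the same way. With the paired-read libraries taken alone, all 131 members were higher than glucose in BSA and in peat, 100 of them at least 2-fold in both. These reads are part of the sums that chose the members, so nothing is read from these counts, and their share over all models is not given here. In the glucose paired-read library 28 members had under 10 reads and 3 had 0. Of the 193 models that met the whole rule in the paired-read libraries alone, 94 were among the 131.

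The members furthest above glucose were nearly silent there. Protein ID 20533 (714 nt) had a deposited RPKM of 0 and 0.254 in the paired-read and single-read glucose libraries, 154 and 156 in BSA, and 189 and 201 in peat. These values rest on 4 reads in glucose, 2327 in BSA and 3682 in peat, a ratio to glucose of 705 in BSA (interval 275 to 2591) and 848 in peat (331 to 3114). Both glucose values were far below the other 4, and peat was slightly above BSA in both layouts. Protein ID 20508 (821 nt) had RPKM of 0 and 0.277 in glucose, 127 and 119 in BSA and 168 and 182 in peat, a ratio of 499 in BSA (213 to 1537) and 707 in peat (303 to 2179) from 5 glucose reads. Again both glucose values lay below the other 4, which the choice of members largely fixes. Without the glucose single-read library both had 0 glucose reads. With 3 reads put in place of that 0, the ratios were at least 39.7 (BSA) and 47.8 (peat) for 20533 and at least 35.04 and 49.9 for 20508.

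Protein ID 105110 (778 nt), chosen here with its values in view, combined a large ratio with a very high level. Its RPKM was 9.28 and 14.8 in glucose, 2474 and 2345 in BSA and 1965 and 1838 in peat. By single-read RPKM it ranked 8309 of 16703 on glucose, 15 on BSA and 27 on peat. Normalised reads were 178-fold higher in BSA than in glucose (157 to 201) and 130.3-fold higher in peat (115 to 148). Of the 26 members at least 4-fold above glucose it was one of 8 with more transcript in BSA than in peat, at a peat to BSA ratio of 0.734 (0.723 to 0.744). Without the glucose single-read library 7 glucose reads remained, and the ratios were 279 and 205.

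The 2 members with the highest CPM in the lower of BSA and peat were already well transcribed on glucose, unlike 105110 above. Protein ID 139563 (153 nt), which was also the shortest member, had RPKM of 2399.9 and 2213 in glucose, 11871 and 11312 in BSA, and 13699.6 and 12343 in peat. It was 5.63-fold higher in BSA (5.49 to 5.77) and 5.76-fold higher in peat (5.62 to 5.9), and its peat to BSA ratio was 1.02 (1.01 to 1.04). In the order of RPKM (single reads) it stood at rank 30 on glucose, rank 8 on BSA and rank 5 on peat. Protein ID 196581 (2902 nt) had RPKM of 88.5 and 101 in glucose, 516 and 503 in BSA, and 759.9 and 736 in peat, with ratios to glucose of 5.54 (5.4 to 5.69) and 7.59 (7.4 to 7.79). For neither model did any glucose value reach those of BSA or peat, which the choice of members largely fixes. The 100 models with the highest single-read RPKM included 1 member on glucose, 5 on BSA and 6 on peat, where members were 131 of the 16703 models ranked. The choice of members on the same reads largely fixes that fewer stood there on glucose, and nothing is read from it.

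**Figure D2:**
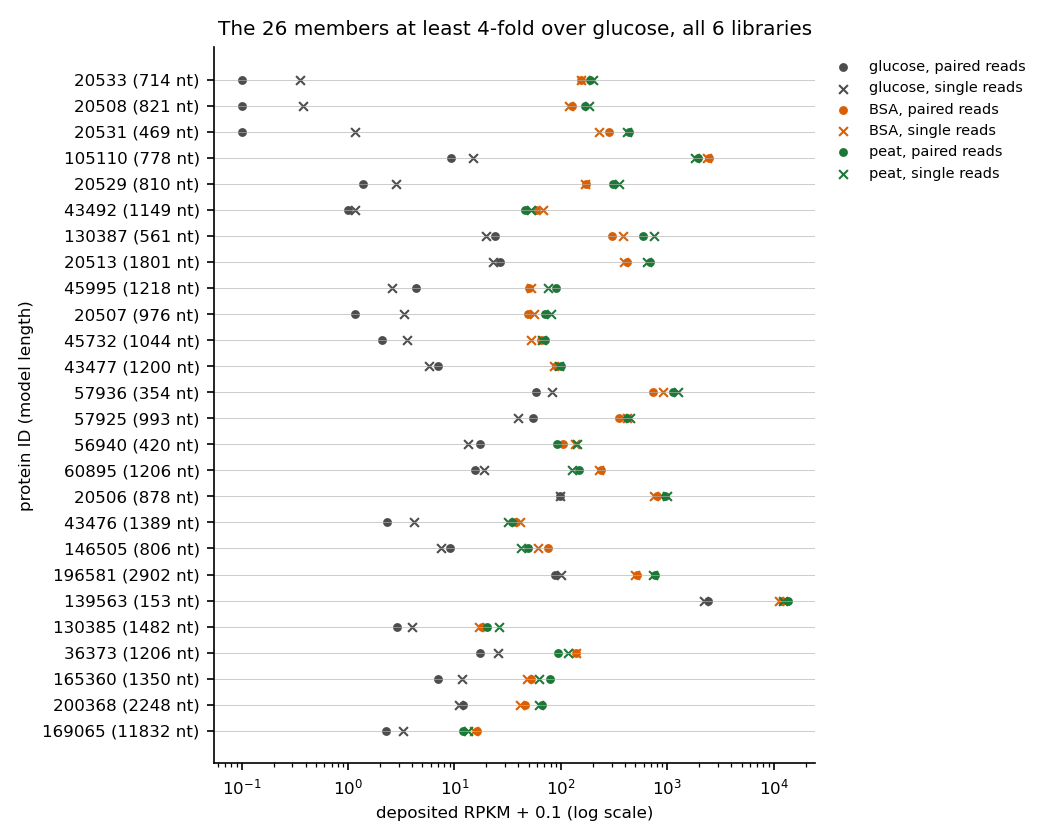
Deposited RPKM + 0.1 (log axis) of the 26 members at least 4-fold over glucose in BSA and in peat, 1 row per model in order of the mean log2 ratio; circles are paired-read and crosses single-read libraries, grey is glucose, orange BSA and green peat. In each of these rows both glucose marks lie left of the 4 others. The choice of members largely fixes this, and 20.9% of all 7682 models show it. The glucose marks range from 0 RPKM (plotted at 0.1) for the uppermost models to over 2000 RPKM for 139563.

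Several members had close protein ID numbers. The files give no genome positions, so closeness of numbers is described here and position is not, and it is not known whether close models overlap. When the 8807 models with at least 20 CPM in any condition were put in numeric order of ID, 24 of the 262 neighbours of members were members themselves, 9.16%, while members were 1.49% of the 8807. There were 7 runs of at least 2 consecutive members, holding 19 members: 4 runs of 2, 2 runs of 3 and 1 run of 5. The run of 5 and 1 of the 2 runs of 3 lay in a single series, described next.

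The run of 5 went from 20502 to 20508 and opened a longer series up to 20533, whose later models an earlier examination of these data had already singled out. The series was formed by extending the run along the order on both sides. It was extended while models had at least 20 CPM and were at least 2-fold above glucose in BSA and in peat. Its 11 models with at least 20 CPM therefore all met these limits by construction, and 9 of them were members. At the start of the series the differences were small. Protein ID 20502 (551 nt) had RPKM of 78.6 and 78.1 in glucose, 136 and 151 in BSA, and 153 and 172 in peat, with ratios to glucose of 2.13 (1.97 to 2.3) and 2.26 (2.1 to 2.43). Protein ID 20504 (947 nt) was the most transcribed of the series on glucose, with RPKM of 325 and 323, against 796 and 772 in BSA and 914 and 921 in peat. Its ratios of 2.63 (2.56 to 2.71) and 2.94 (2.86 to 3.02) were somewhat above those of 20502.

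Further along, the ratios were larger and the glucose levels mostly lower. Protein ID 20506 (878 nt) had RPKM of 97.5 and 98.1 in glucose, 809 and 753 in BSA, and 963 and 988 in peat, with ratios to glucose of 8.49 (8.1 to 8.91) and 10.4 (9.91 to 10.9). Protein ID 20507 (976 nt) had only 1.06 and 3.26 RPKM in glucose, against 49.3 and 55.3 in BSA and 71.7 and 81.5 in peat. Its ratios were 19.2 (15.1 to 24.7) and 26.4 (20.9 to 34), and 57.4 and 79.4 without the glucose single-read library, where 1 read remained. After 20508 came 20510, which was left out because BSA and peat lay just over the limit apart.

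The remaining members of the series were 20513, 20529, 20531 and 20533. Protein ID 20513 (1801 nt) had RPKM of 26.9 and 22.9 in glucose, 423 and 391 in BSA, and 682 and 642 in peat, with ratios to glucose of 18.8 (17.6 to 20.1) and 28.8 (27 to 30.8). Protein ID 20529 (810 nt) had 1.27 and 2.75 RPKM in glucose, 174 and 169.7 in BSA, and 309 and 352 in peat, at ratios of 69.8 (52.8 to 94.2) and 134 (102 to 181). Protein ID 20531 (469 nt) had 0 and 1.07 RPKM in glucose, 287 and 229 in BSA, and 437 and 417 in peat, at ratios of 250.2 (139.6 to 502) and 423 (236 to 847). In none of the 9 did a glucose library reach a BSA or peat library, and the same held in 20.9% of all 7682 models. The choice of members on the sums largely fixes this. Without the glucose single-read library the ratios of 20529 were 147 and 284, from 1 glucose read, and those of 20531 at least 38.7 and 65.5.

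By its definition the series ended on both sides at the first model short of the limits, and both of these were under 2-fold. The preceding model in the order, 20491, had ratios to glucose of 1.63 in BSA (1.56 to 1.7) and 1.11 in peat (1.06 to 1.16), and the following model, 20537, had 1.58 (1.52 to 1.65) and 1.53 (1.48 to 1.59). These flanking models, and 20532 below, are named because they bound or interrupt the series. Besides 20510, the series held 2 models that were not members. Protein ID 20532 (942 nt), at 236-fold (149 to 399) in BSA and 559-fold (354 to 944) in peat, differed between BSA and peat by a ratio of 2.37 (2.28 to 2.46), and 20530 (378 nt) had too low a level, with 6.96 CPM in BSA and 19.3 CPM in peat. Without the glucose single-read library the ratios of 20532 were 89.7 and 213.

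**Figure D3:**
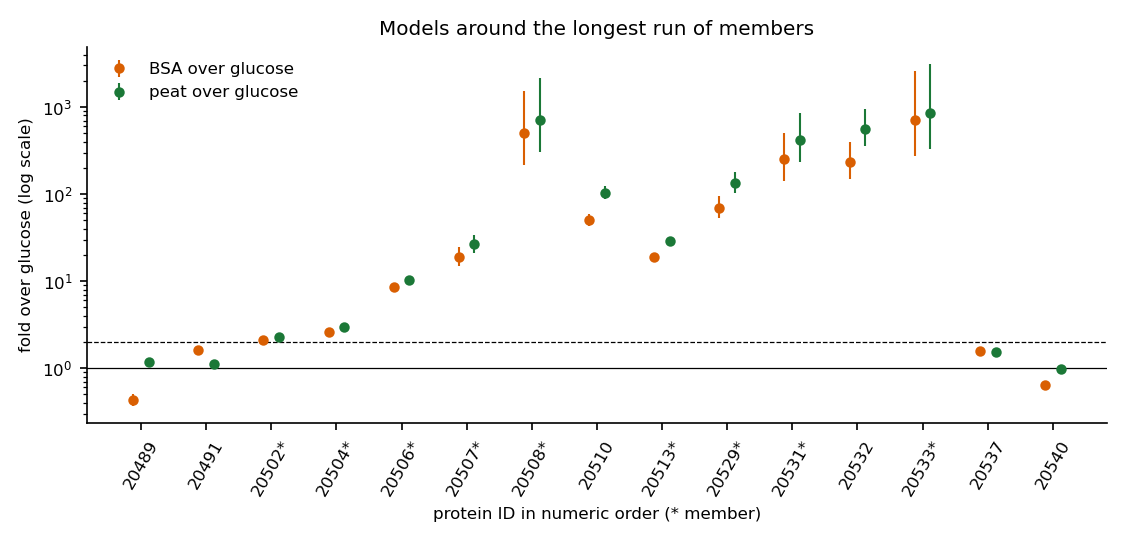
Ratio of normalised reads in BSA (orange) and peat (green) to glucose on a log axis, for the models with at least 20 CPM in any condition from 2 before to 2 after the series 20502 to 20533, in numeric order of protein ID and not to scale of any distance; bars are exact 95% intervals for counting error, the solid line is 1 and the dashed line 2, and members carry an asterisk. The series was bounded by the 2-fold limit, which fixes that all models from 20502 to 20533 lie above the dashed line. It also fixes that the nearest model on either side falls short of the limit. The 2 models shown on either side lie below the line.

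All 9 members of the series were higher in peat than in BSA, by a log2 ratio of CPM + 0.5 between 0.09 and 0.94, where 45.7% of all 7682 models were higher in peat. For 20502 the difference was small, and the counting interval of its peat to BSA ratio, 0.998 to 1.13, spanned 1. With the running median of the ratios over model length removed, its log2 ratio to glucose was 1.575 in BSA and 1.562 in peat. Among the other 122 members 36 were higher in peat and 86 higher in BSA. Outside the series, 11 of the 19 members at least 4-fold above glucose were higher in peat and 8 higher in BSA. Of the 103 others outside the series, 25 were higher in peat and 78 higher in BSA. By the median of all members peat was below BSA by a log2 ratio of -0.14, and by -0.03 over all 7682 models.

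Other members with close numbers differed strongly from glucose as well, and are named here because they stood in runs or close together, chosen after their values were seen. Protein IDs 43476, 43477 and 43492 (1389, 1200 and 1149 nt) formed a run of 3. Protein ID 43492 had 0.898 and 1.07 RPKM in glucose, 58.5 and 67.9 in BSA, and 45.9 and 52.6 in peat, with ratios to glucose of 70.2 (48.4 to 106) and 50.9 (35 to 76.8). Protein ID 43477 was 16.4-fold (13.9 to 19.3) and 17.4-fold (14.8 to 20.5) above glucose. Protein ID 43476 was 11.3-fold (9.4 to 13.7) and 8.21-fold (6.83 to 9.94) above it, and 20.2-fold and 14.7-fold without the glucose single-read library. Unlike the series above, 2 of these 3 were higher in BSA than in peat, at peat to BSA ratios of 0.724 for 43492 and 0.727 for 43476.

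Protein IDs 130385 and 130387 (1482 and 561 nt) were a run of 2 with unequal levels. Protein ID 130387 had RPKM of 23.9 and 19.7 in glucose, 305 and 386 in BSA, and 587 and 753 in peat, with ratios to glucose of 21.2 (18.7 to 24.2) and 38.8 (34.2 to 44). Protein ID 130385 was 4.82-fold (3.97 to 5.89) and 6.9-fold (5.74 to 8.34) above it. Both were higher in peat than in BSA. Protein IDs 57925 and 57936 (993 and 354 nt) were not consecutive in the order, but had like ratios. They stood 11.5-fold (10.7 to 12.3) and 12.3-fold (11.4 to 13.4) above glucose in BSA, and 11.7-fold (10.9 to 12.5) and 16-fold (14.8 to 17.4) above it in peat. Protein ID 57936 reached 1126 and 1262 RPKM in peat, from 58.3 and 81.8 in glucose and 737 and 911 in BSA.

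The remaining runs of 2 lay nearer the limit. The models 121717 and 121744 were 2.51-fold and 3.83-fold above glucose in BSA and 2.23-fold and 2.51-fold in peat. The models 122620 and 122648 were 2.93-fold and 2.62-fold above glucose in BSA and 2.13-fold and 2.44-fold in peat. Protein ID 169056 (1676 nt), at 2.31-fold and 2.297-fold, stood beside 169065, which is described with the long models.

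Length was not used by the rule, and the members were spread unevenly over it. The median length was 1632 nt for the members and 1476.5 nt for all 7682 models, with upper quartiles of 2798 and 2085 nt. Over 5000 nt were 13 members, 9.92% of them, against 1.84% of all 7682 models, and of the 141 models of that class 9.22% were members. From 3000 to 5000 nt 2.69% of the models were members, and between 500 and 3000 nt 1.37% to 1.47% of a class. The shortest class, up to 500 nt, held 7 members among 255 models, 2.75%.

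Over all 7682 models the median ratio to glucose rose with length. The share of members rose with it only above 3000 nt. From 500 to 3000 nt the share stayed nearly level, and up to 500 nt it was higher again. The median log2 ratio over the 7682 models was -0.45 in BSA and -0.45 in peat up to 500 nt, and 0.58 and 0.54 over 5000 nt. Between peat and BSA the class medians lay within -0.05 to 0.01. When the running median over length was removed, 129 models met the rule, 91 of them among the 131. Members over 3000 nt went from 30 (22.9%) to 5 (3.88%), where 10.1% of all 7682 models were over 3000 nt. Of the 26 members at least 4-fold above glucose, 24 stayed so, and only 1 of those 26 (3.85%) was over 3000 nt. Conversely, 75 models had the opposite pattern (at least 20 CPM in glucose, at least 2-fold lower in BSA and peat, and less than 2-fold between them). None of the 75 was over 3000 nt, and their median length was 779 nt. The share over 3000 nt among all models with at least 20 CPM in glucose is not given here.

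**Figure D4:**
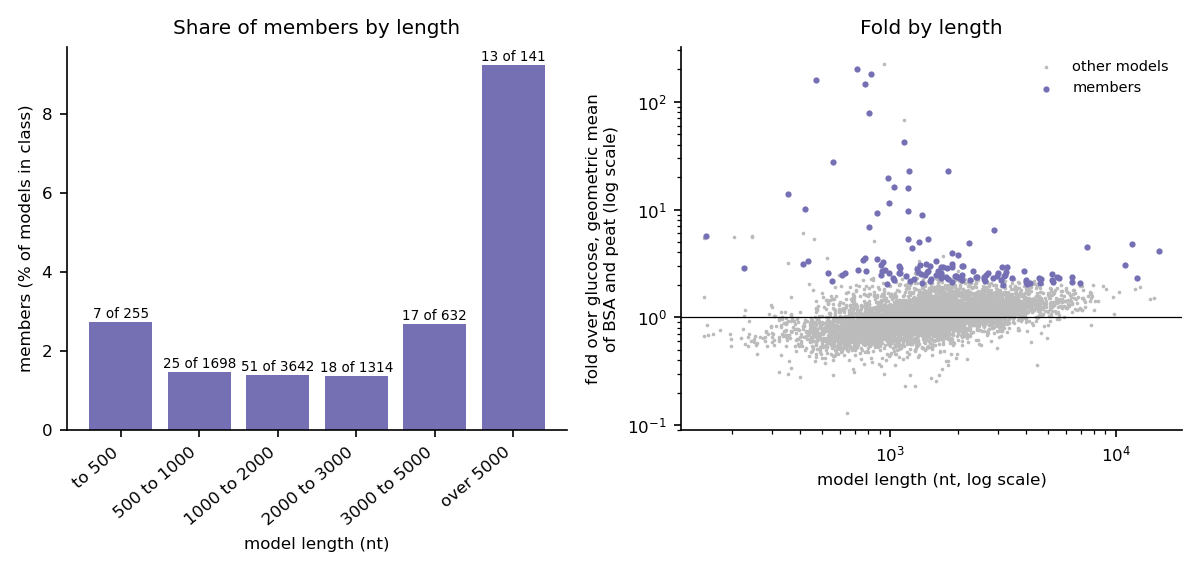
Left, members as a percentage of the 7682 models in each class of model length (nt), with the counts above the bars; right, ratio to glucose (geometric mean of the BSA and peat ratios of CPM + 0.5, log axis) against length (nt, log axis) for members (purple) and the other models (grey). The bar over 5000 nt is the highest at 9.22%, while the members with ratios above 10 are all shorter than 2000 nt.

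The long members had moderate ratios. The 30 members over 3000 nt had median ratios of 2.51 in BSA and 2.24 in peat, and none exceeded 5.63 in BSA or 4.82 in peat, whereas the shorter members had medians of 2.94 and 2.57. The longest, protein ID 149992 (15601 nt), had RPKM of 0.793 and 1.32 in glucose, 3.59 and 4.18 in BSA, and 6.57 and 6.17 in peat. It stood 3.53-fold (3.18 to 3.93) and 4.92-fold (4.45 to 5.44) above glucose, and 5.77-fold and 8.06-fold without the glucose single-read library. Protein ID 169065 (11832 nt) was the only member over 3000 nt at least 4-fold above glucose in both, with RPKM of 2.18 and 3.22 in glucose, 16.2 and 15.2 in BSA, and 11.8 and 13.4 in peat, at ratios of 5.31 (4.93 to 5.72) and 4.33 (4.02 to 4.66).

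Reads that match more than 1 model played almost no part in the members. In 129 of the 131 every read matched 1 model only (98.5%, against 98.4% of all 7682 models), and the members held 6 shared reads in all. The highest share was 0.283% in protein ID 55594 (5289 nt), whose RPKM was 2.15 and 2.82 in glucose, 2.96 and 5.31 in BSA, and 4.17 and 6.34 in peat. Its ratio in BSA was 2.05 (1.79 to 2.36), and 1.13 without the BSA single-read library, where paired reads of BSA stood against mostly single reads of glucose. Counts of unique reads gave the same 131 members.

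At the limits of the rule, members and other models were hardly distinct. Nearest inside the fold limit was protein ID 108361 (3162 nt), with 40.6 CPM in glucose, 81.9 CPM in BSA and 81.8 CPM in peat, and nearest outside was 18041 (439 nt), with 16.5, 35.3 and 33.4 CPM. For the level, 49368 (411 nt) was nearest inside with 32.8 CPM in BSA and 20.6 CPM in peat, and 174035 (1758 nt) nearest outside with 19.7 and 20.1 CPM. For the ratio of BSA to peat, 20529 was nearest inside with 152 CPM in BSA and 292 CPM in peat, and 20510 (1154 nt) nearest outside with 324 and 670.04 CPM. The counting intervals of the ratios of 108361, 1.86 to 2.19 in BSA and 1.86 to 2.18 in peat, spanned the limit of 2.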

How the data were processed

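RNA from free-living mycelium on 3 carbon amendments was sequenced as 75 bp reads, in 1 paired-read and 1 single-read library per condition. The deposited counts are the unique and the total gene reads of each of 16703 models, per the file headers. RPKM came from the authors too, and each value gave a whole-number model length within 0.01 nt when solved with the sum of total gene reads. The sources used here do not state trimming, aligner, counter or strand.

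Members were found on total gene reads as stated in the report, with Python 3.11.15, numpy 2.4.6, pandas 2.3.3 and scipy 1.17.1. The 2 libraries of a condition were compared by a chi-square statistic (models with 5 or more reads expected in the shallow libraries) and counted as 1 sample, so no test between conditions was made. Mismatching the libraries of different conditions gave 35.8 and 42.1 in place of 1.06. The labels do not say whether the libraries came from separate cultures. Ratios of normalised reads carry exact (Clopper-Pearson) 95% intervals. Where the remaining glucose library had 0 reads, 3 reads were used to give a lower bound. The rule and the statistic were run on simulated data with 4-fold changes, a layout effect and counting noise. The simulation held no smaller changes and no variation between cultures, so it does not probe the 2-fold limit. TMM factors for an alternative came from edgeR 4.0.16 in R 4.3.3.

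The members and the rules for naming models were chosen with earlier results of these data known. Named were the 2 members with the largest mean log2 ratio, the 2 with the highest CPM in the lower of BSA and peat, the models on either side of each limit, the longest run in ID order, the longest and shortest members and the one with the highest share of shared reads. Other models named were chosen after their values were seen.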

Additional observations from a re-analysis of the deposited data

How the results depend on the processing

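The number of members, 131, followed the limits chosen. It was 87 with a minimum of 50 CPM, 218 with no minimum, 512 at 1.5-fold and 26 at 4-fold. Other scalings gave 106 (total counts), 154 (TMM) and 168 (median-of-ratios size factors as in DESeq2), with 106, 131 and 131 of the 131 among them. Total counts put the median log2 ratio of BSA to glucose over the 7682 models at -0.13 in place of 0.01. Leaving out 1 library gave 127 to 263 members, the highest without the glucose single-read library, and 25 to 37 members at least 4-fold above glucose in both, where 26 were found. With the read layouts as a replicate block of equal weight, 151 models met the rule, 109 of them among the 131, and 29 were at least 4-fold above glucose. Replicate numbers follow accession order and pair nothing beyond the layout. The single-read libraries alone gave 129 and the paired-read libraries alone 193, both settings added after the data were seen. The direction of the 32 ratios of the 16 models named by rule held in all 512 values, which the choice of these models by size makes likely. The 16 do not include 99112, whose log2 ratio to glucose was -0.996 in BSA and -1.44 in peat without the single-read library of that condition. Of the 512 values 30 moved by over 1.5 times, 14 of them under another pseudocount and 10 with 1 library left out. Among all 131 members, the ratios of 17 moved by over 1.5 times without the glucose single-read library, and of 6 each without that of BSA or peat. Leaving out a single-read library sets paired reads of 1 condition against mostly single reads of the others, and how much of these moves that makes was not tested. In the glucose paired-read library 28 members had under 10 reads.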

Other observations

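Of the 11 models at least 2-fold above glucose in BSA and in peat but 2-fold or more apart, 7 stood above all members in level on BSA. They held the first 7 ranks by RPKM in the BSA single-read library, while the highest rank of a member was 8. The model 208821 (852 nt) had RPKM of 5640.03 and 5545 in glucose, 40559 and 40555 in BSA, and 17476 and 17140.1 in peat. Several of these 7 rest on reads counted in more than 1 model, so their own levels are uncertain. Shared reads made up 100% of the reads of 139572 and of 111751 (both 246 nt), 75.7% of those of 139577 (204 nt) and 8.48% of those of 139570 (459 nt), where no member had over 1%. Of the 3 that were higher in peat, 2 were the models 20510 and 20532 of the series described above, and the other was 141046 (1347 nt), at 2.08-fold (1.83 to 2.37) in BSA and 5.62-fold (5.04 to 6.29) in peat over glucose. These models were named after their values were seen.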
